A study of Mus musculus with 9 samples.

Results

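The interferon-inducible GTPases described here are 7 genes of 2 related families, the guanylate-binding proteins *Gbp2* and *Gbp3* and the immunity-related GTPases *Iigp1*, *Ifi47*, *Igtp*, *Irgm1* and *Irgm2*. They are named by symbol, with no measured value used, but the set was drawn up with earlier results of these data known and is not every gene of these families. The counts over the 7 are therefore no count over the families, whose other measured genes are given separately. Each gene was read by the probe set, among those annotated to that gene alone, with the highest mean over all arrays, and all 7 had one among the 17097 genes with such a probe set. RNA came from a block of brain around the site of an intrastriatal injection, on the injected side, of saline-perfused male C57Bl/6J mice of 10 to 12 weeks, an inbred laboratory strain with no engineered allele in the labels. The 3 groups were LPS 4 d and LPS 1 d, taken 4 d and 1 d after injection of lipopolysaccharide (the bacterial cell wall component sensed by TLR4), and PBS, taken 4 d after injection of vehicle. Each group had 3 arrays, and an array held the RNA of 3 mice mixed together, which means that errors here are between pools. PBS at 1 d was not analysed here, and LPS 1 d and PBS therefore also differ in the time since surgery. The values are log2 expression after RMA, in which background is removed, arrays are put on one scale by quantile normalisation and each probe set gets a single value from its probes.

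Both families are switched on by interferons. Interferon gamma acts at gamma-activated sequences (GAS) in promoters, and type I interferons at interferon-stimulated response elements (ISRE), which are bound by interferon regulatory factors such as IRF1 and IRF9. The proteins bind guanine nucleotides, assemble on the membranes of vacuoles that hold bacteria or parasites, and help to break them open. Guanylate-binding proteins also gather on bacteria and on LPS in the cytosol and aid its recognition by caspase-11. Among the immunity-related GTPases, *Iigp1* (Irga6) and *Ifi47* (Irgd) encode effectors that load onto vacuoles, while *Irgm1*, *Irgm2* and *Igtp* (Irgm3) encode regulators that sit on the cell's own membranes and hold the effectors inactive there. In brain these genes are known from toxoplasmosis and other infections, in which microglia, astrocytes and infiltrating leukocytes can express them.

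Promoter sequence is shown first, as a description that uses no array value. It was not used directly to choose the genes, but they are known to be induced by interferons. A share of ISRE and GAS elements above that of all promoters could therefore be foreseen. Its bearing on the array values was not tested. RefSeq promoter windows (build GRCm38.p6, from 250 bases before to 50 bases after the start site) were available for 6 of the 7 genes, with a pair of alternative windows for *Gbp3*. Each window was searched on both strands for an ISRE-type match, GAAANNGAAA, and a GAS-type match, TTCNNNGAA. A gene was counted when any of its windows matched, while the share over all promoters counts each window. The ISRE-type letters were found in 5 of these 6 genes, against 3.44% of all 32851 promoter windows. The GAS-type letters were found in 2 of the 6, *Igtp* and *Irgm2*, against 8.30% of all windows. The 100 bases before the start site of the 5 genes with a match are printed 5′ to 3′ on the strand of the gene, with the matched bases in capitals.
Gbp2: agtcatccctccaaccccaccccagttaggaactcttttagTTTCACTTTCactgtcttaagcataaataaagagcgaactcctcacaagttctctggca
Gbp3: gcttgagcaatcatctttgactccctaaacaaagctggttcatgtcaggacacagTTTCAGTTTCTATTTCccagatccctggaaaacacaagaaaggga
Igtp: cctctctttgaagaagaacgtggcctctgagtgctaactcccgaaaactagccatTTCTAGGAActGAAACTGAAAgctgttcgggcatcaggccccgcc
Irgm1: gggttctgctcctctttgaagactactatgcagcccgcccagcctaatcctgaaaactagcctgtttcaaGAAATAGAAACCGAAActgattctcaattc
Irgm2: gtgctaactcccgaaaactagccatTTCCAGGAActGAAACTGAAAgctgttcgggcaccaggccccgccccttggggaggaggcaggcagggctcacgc

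These stretches lie at chr3:142620563-142620662 (plus strand) for *Gbp2*, chr3:142559944-142560043 (plus strand) for *Gbp3*, chr11:58199456-58199555 (plus strand) for *Igtp*, chr11:48871421-48871520 (minus strand) for *Irgm1* and chr11:58214877-58214976 (plus strand) for *Irgm2*. In *Gbp2* and *Gbp3* the ISRE-type letters are on the other strand, so they read as their reverse complement above. *Gbp2* has 1 match, which starts 59 bases before the start site. *Gbp3* and *Irgm1* each have 2 matches that overlap and share their middle GAAA, and these 16-base tracts, read on the strand of the motif, are identical at 15 of 16 bases. *Igtp* and *Irgm2*, whose start sites are 15.4 kb apart, have the GAS-type match 2 bases before the ISRE-type match in both, and without gaps their sequences are identical at 68 of 70 bases (97.1%) around it. Both kinds of match together were found in 0.454% of all windows. No match of either kind was found in the window of *Ifi47* or in the other window of *Gbp3*. The table held no window for *Iigp1*. Among 10 other guanylate-binding and immunity-related GTPase genes with a window, 7 held the ISRE-type and 5 the GAS-type letters. The matches are a description of the letters, and binding was not measured.

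**Figure D1:**
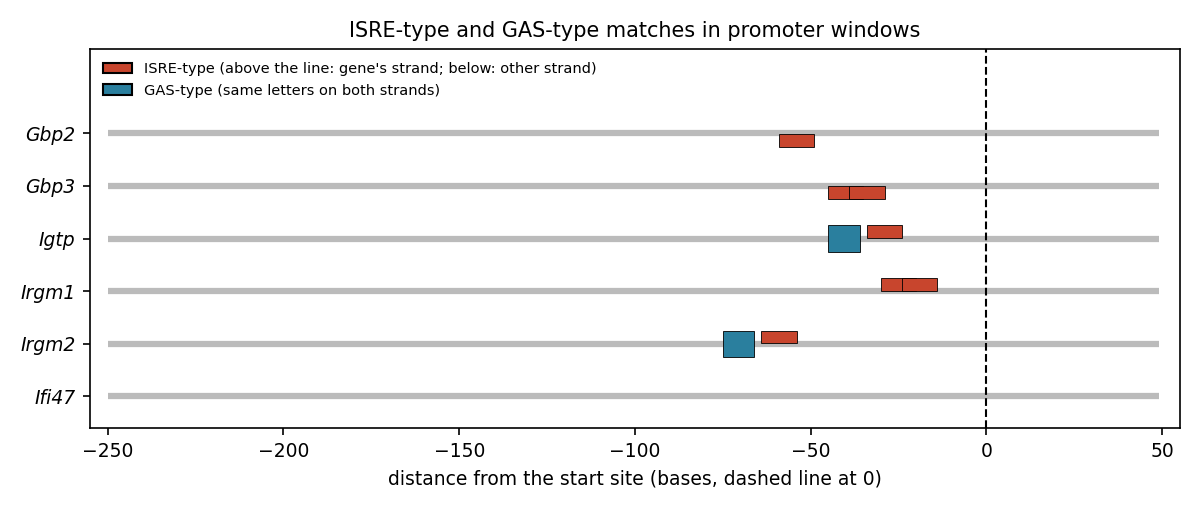
Position of ISRE-type (red) and GAS-type (blue) matches in the promoter windows of 6 GTPase genes (grey lines), with the distance from the start site in bases on the x axis. The matches lie within 75 bases before the start site in 5 genes, *Ifi47* has none, and the second *Gbp3* window, which also has none, is not drawn.

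All 7 GTPases were highest 1 d after LPS, lower but still raised at 4 d, and lowest after PBS. *Gbp2*, a guanylate-binding protein found on bacterial and parasite vacuoles, had log2 values of 7.07, 6.85 and 7.16 in LPS 4 d, 9.43, 10.13 and 9.72 in LPS 1 d, and 5.21, 5.50 and 5.43 in PBS, for replicates 1, 2 and 3. *Gbp3*, its neighbour on chromosome 3, had 6.54, 6.23 and 6.67 in LPS 4 d, 7.85, 8.50 and 8.19 in LPS 1 d, and 4.85, 4.87 and 4.65 in PBS. In both guanylate-binding protein genes the 3 groups did not overlap, and replicate 2 was the lowest of the LPS 4 d arrays and the highest of the LPS 1 d arrays.

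The effector *Iigp1* had 6.09, 6.25 and 6.29 in LPS 4 d, 8.20, 8.77 and 8.65 in LPS 1 d, and 4.62, 4.47 and 3.88 in PBS. The effector *Ifi47* had 4.92, 4.93 and 5.21 in LPS 4 d, 6.26, 7.31 and 6.96 in LPS 1 d, and 3.52, 3.29 and 3.58 in PBS. The PBS arrays of *Ifi47* thus lay around the background level of these arrays, a log2 value of 3.49 (the top value when 23 nonspecific controls were each averaged over the arrays), and its changes from PBS are limited by background. The other 6 genes were above that level in the mean of every group.

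The 3 regulators had the same order of groups. *Igtp* had 6.31, 6.05 and 6.36 in LPS 4 d, 7.79, 8.23 and 8.26 in LPS 1 d, and 5.42, 5.32 and 5.29 in PBS. *Irgm1*, which is needed in mice for resistance to several intracellular bacteria, had 6.82, 6.22 and 6.72 in LPS 4 d, 7.73, 8.19 and 8.17 in LPS 1 d, and 5.64, 5.45 and 5.88 in PBS. *Irgm2*, which restrains the caspase-11 response in mouse macrophages, had 6.07, 6.07 and 5.95 in LPS 4 d, 6.69, 6.97 and 7.16 in LPS 1 d, and 5.15, 5.30 and 4.79 in PBS. *Irgm1* had its lowest LPS 4 d array 0.34 above its highest PBS array, the narrowest gap between LPS 4 d and PBS among the 7 genes. Across the whole set, every LPS 1 d array lay above every LPS 4 d array and every LPS 4 d array above every PBS array in 7 of 7 genes, a pattern seen in 1.65% of all 17097 genes.

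**Figure D2:**
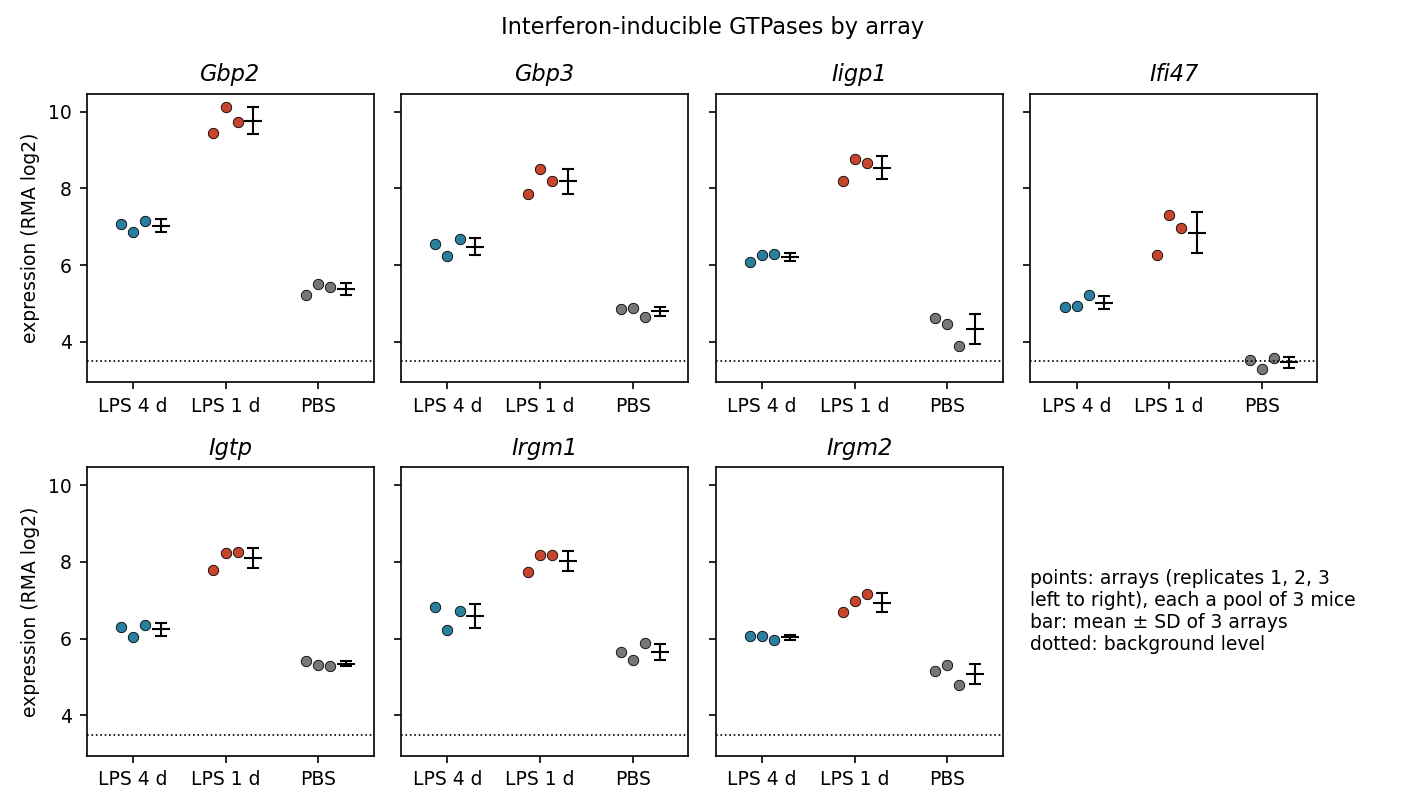
Log2 expression of each GTPase (y axis) in the arrays of LPS 4 d, LPS 1 d and PBS (x axis), with points for replicates 1, 2 and 3 from left to right, a bar for the mean ± SD of 3 arrays and a dotted line at the background level of 3.49. The groups do not overlap in any of the 7 genes, and replicate 1 is the lowest LPS 1 d array in each.

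Brain tissue was taken whole, so a change in the number of cells of a type and a change in RNA per cell cannot be told apart. The study's thresholds were used, and a gene was called between a pair of groups when limma's p, adjusted by Benjamini-Hochberg over all 45037 probe sets, was under 0.05 and the fold change was 1.5 or more. All 7 GTPases differed across the groups by limma's F-test, as did 7.67% of all genes, with adjusted p between 7.12e-06 for *Gbp2* and 2.94e-04 for *Irgm2*. With 3 arrays in a group, the smallest p that exact permutation allows is 0.1, and precision is limited by how few arrays there are.

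The first comparison asks what the induction phase, 1 d after LPS, did to these genes. All 7 were called higher in LPS 1 d than in PBS, against 3.86% of all genes called higher and 0.532% called lower. Their median log2 change was 3.38, against −0.03 over all genes. *Gbp2* had the largest change of the 7, with means of 9.76 ± 0.35 in LPS 1 d and 5.38 ± 0.15 in PBS (SD, n = 3 arrays each), a log2 change of 4.38 or 20.8-fold (standard error 0.17, adjusted p = 3.79e-06 from limma). *Iigp1* followed with a log2 change of 4.22 or 18.6-fold (standard error 0.21, adjusted p = 8.03e-06 from limma). *Gbp3* rose by 3.39 (10.5-fold, standard error 0.17) and *Ifi47* by 3.38 (10.4-fold, standard error 0.23). The regulators had smaller changes than these 4 genes, with 2.75 for *Igtp* (standard error 0.14), 2.37 for *Irgm1* (standard error 0.19) and 1.86 or 3.63-fold for *Irgm2* (standard error 0.15, adjusted p = 1.26e-04 from limma). The difference between regulators and the other genes is a description of 7 probe sets and was not tested. By size of rise among all 17097 genes, *Gbp2* ranked 35 and *Irgm2* 256.

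The second comparison asks what was left in the resolution phase, at 4 d. All 7 were still called higher in LPS 4 d than in PBS, against 4.21% of all genes called higher and 0.205% called lower, with a median log2 change of 1.56, against −0.02 over all genes. The same PBS arrays served for both times. *Iigp1* had the largest of these changes, with means of 6.21 ± 0.11 in LPS 4 d and 4.32 ± 0.39 in PBS (SD, n = 3 arrays each), a log2 change of 1.88 or 3.69-fold (standard error 0.21, adjusted p = 8.10e-04 from limma). *Gbp3* rose by 1.69 (standard error 0.17), *Gbp2* by 1.65 (standard error 0.17) and *Ifi47* by 1.56 (standard error 0.23). The 3 regulators again had the smallest values of the 7, each between 1.86-fold and 1.94-fold. Their log2 changes were 0.95 for *Irgm2* (standard error 0.15), 0.93 for *Irgm1* (standard error 0.19, adjusted p = 0.0288 from limma) and 0.90 for *Igtp* (standard error 0.14). The *Irgm1* call was lost when any of 4 arrays was left out (LPS 4 d replicate 1 or 3, PBS replicate 1 or 2), with log2 changes from 0.82 to 0.92 and adjusted p from 0.0897 to 0.107 from limma.

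The third comparison sets both times after LPS against each other. All 7 were called lower in LPS 4 d than in LPS 1 d, against 1.37% of all genes called lower and 1.84% called higher, and their median log2 change was −1.82, against 0.00 over all genes. *Gbp2* fell by 2.73 on the log2 scale, to a level 6.64-fold lower (standard error 0.17, adjusted p = 2.06e-04 from limma), and *Iigp1* by 2.33 (standard error 0.21). *Igtp* fell by 1.85, *Ifi47* by 1.82, *Gbp3* by 1.70 and *Irgm1* by 1.44, with standard errors from 0.14 to 0.23. *Irgm2* fell by 0.91 (standard error 0.15, adjusted p = 0.0163 from limma), and this call was lost when LPS 4 d replicate 1 or 3 or LPS 1 d replicate 2 or 3 was left out, with log2 changes from −0.93 to −0.80 and adjusted p from 0.0558 to 0.0695 from limma.

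**Figure D3:**
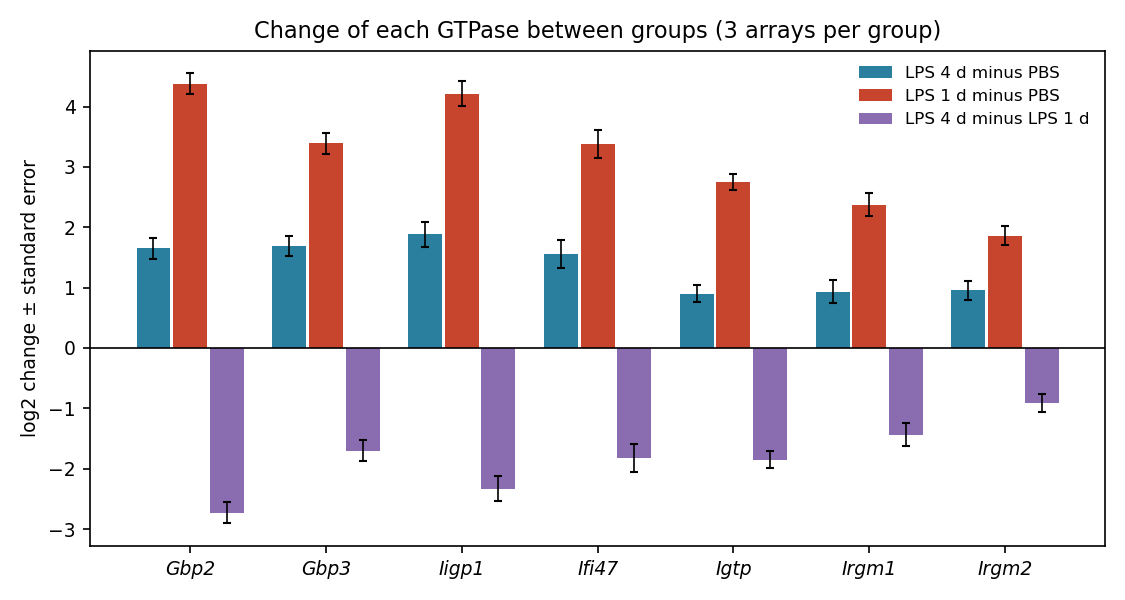
Log2 change of each GTPase (x axis) for LPS 4 d minus PBS (blue), LPS 1 d minus PBS (red) and LPS 4 d minus LPS 1 d (purple), with the standard error from the linear model as error bars (3 arrays per group). The changes from PBS at 4 d run between 0.90 and 1.88 and those at 1 d between 1.86 and 4.38, and both use the same PBS arrays.

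The share of the 1 d change that remained at 4 d, on the log2 scale, was 51.2% for *Irgm2*, 49.8% for *Gbp3*, 46.1% for *Ifi47*, 44.7% for *Iigp1*, 39.3% for *Irgm1*, 37.7% for *Gbp2* and 32.7% for *Igtp*. Taken for single LPS 4 d arrays, with the LPS 1 d and PBS means held fixed, this share ran from 25.7% to 37.1% for *Igtp* and from 47.0% to 53.4% for *Irgm2*. That of *Irgm1* ran from 23.9% to 48.9% and overlapped with those of the 6 other genes. These ranges leave out the spread of the LPS 1 d and PBS arrays, and differences between genes in this share were not tested. Among the LPS 1 d arrays, replicate 1 was the lowest in all 7 genes, as it was in 65.5% of the 660 genes called higher at 1 d and in 35.3% of all genes. Over the 9 arrays, the Pearson correlation between a pair of these genes ran from 0.941 (*Irgm1* and *Irgm2*) to 0.994 (*Gbp2* and *Igtp*), values that share the arrays and are set mainly by the 3 groups.

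A second probe set was annotated to 2 of the genes. For *Gbp2* it gave log2 changes of 1.68 at 4 d and 4.42 at 1 d from PBS, against 1.65 and 4.38 for the first. For *Iigp1* it gave 1.54 and 3.95, against 1.88 and 4.22. Both second probe sets passed the test in all 3 comparisons. The *Gbp2* probe set used for the main values is of a kind whose probes can match more than 1 transcript, and near-identical relatives within these families could be read together.

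Among relatives, *Gbp10*, *Gbp7* and *Tgtp1* had the same order of groups as the 7 genes. Of 25 other genes listed from the guanylate-binding, immunity-related, Mx and very large GTPases, 9 had a probe set of their own, of which 3 were higher in LPS 4 d than in PBS, 4 were higher in LPS 1 d than in PBS and 4 were lower in LPS 4 d than in LPS 1 d. The 3 higher at 4 d became 1 with a fold change of at least 2, and 1 by ordinary tests without limma's moderation. *Gbp10* had 5.77 ± 0.30 in LPS 4 d, 8.50 ± 0.48 in LPS 1 d and 4.08 ± 0.57 in PBS (SD, n = 3 arrays each), and its log2 change from PBS was 1.69 at 4 d and 4.42 at 1 d. *Gbp7* had 6.71 ± 0.02, 8.14 ± 0.40 and 5.87 ± 0.08 in the same groups, and *Tgtp1* (Irgb6), an effector of vacuoles, had 6.17 ± 0.03, 8.04 ± 0.27 and 5.33 ± 0.16 (SD, n = 3 arrays each). Log2 changes from PBS were 0.84 at 4 d and 2.27 at 1 d for *Gbp7*, and 0.84 and 2.71 for *Tgtp1*. Both lay below *Igtp*, *Irgm1* and *Irgm2* at 4 d and below *Igtp* at 1 d. Small changes were therefore not particular to the regulators. *Mx1*, an antiviral GTPase, was higher in LPS 1 d than in PBS by 2.14 and had 3.29 ± 0.64 in LPS 4 d and 3.02 ± 0.32 in PBS, both at background. *Mx2* did not pass the test in any comparison, with 3.75 ± 0.21 in LPS 4 d, 4.57 ± 0.52 in LPS 1 d and 3.74 ± 0.35 in PBS. *Gbp2b*, *Gbp4* and *Gbp8* were at background in all 3 groups, between 1.84 and 2.37. *Irgq*, a GTPase-like gene that is not interferon-inducible, had 7.87 ± 0.03, 7.85 ± 0.08 and 7.99 ± 0.14 in LPS 4 d, LPS 1 d and PBS (SD, n = 3 arrays each).

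RNA for the interferons themselves was at background. *Ifng* had 2.04 ± 0.23 in LPS 4 d, 1.92 ± 0.13 in LPS 1 d and 1.99 ± 0.23 in PBS, and *Ifnb1* had 1.92 ± 0.13, 2.39 ± 0.20 and 1.97 ± 0.09 (SD, n = 3 arrays each). Of 12 interferon and inducing cytokine genes measured, only *Ebi3*, a subunit shared by interleukins 27 and 35, passed the test, with a log2 change from PBS of 2.10 at 4 d and 1.77 at 1 d. Of 8 receptor and kinase genes, *Ifnar2*, a chain of the type I receptor, was higher than PBS in LPS 4 d (0.73) and in LPS 1 d (0.63), and *Ifngr1*, the ligand-binding chain of the interferon gamma receptor, was higher in LPS 4 d than in PBS (0.69) and than in LPS 1 d (0.63). The last call was lost by ordinary tests and without LPS 1 d replicate 1.

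Transcription factors downstream of these receptors moved in both directions between the times. Of 12 measured, 6 were higher than PBS in LPS 4 d, 6 were higher than PBS in LPS 1 d, and between the times 7 were lower and 1 higher in LPS 4 d. *Batf2*, among the 7 lower, had every group mean at background (2.64 in LPS 4 d, 3.24 in LPS 1 d and 2.97 in PBS). Ordinary tests called 3 higher in LPS 4 d and 6 in LPS 1 d than in PBS, and between the times 2 lower and 0 higher, against 7 lower and 2 higher at an unadjusted p under 0.05 from limma. Their median log2 change was −0.64 between the times, and from PBS it was 0.76 in LPS 4 d and 1.05 in LPS 1 d. *Irf1*, a factor that binds ISRE-type letters, had 6.14 ± 0.13 in LPS 4 d, 6.81 ± 0.16 in LPS 1 d and 5.18 ± 0.20 in PBS (SD, n = 3 arrays each), with log2 changes from PBS of 0.96 at 4 d and 1.63 at 1 d. *Irf7* (3.14), *Nlrc5*, the activator of MHC class I genes (2.64), and *Irf9* (1.96) had the largest measured changes at 1 d, and all 3 were lower in LPS 4 d than in LPS 1 d. The PBS means of *Irf7* (3.14 ± 0.22) and *Nlrc5* (2.97 ± 0.45, SD, n = 3 arrays each) were at background, which limits their changes from PBS. *Irf8*, a factor of myeloid cells and microglia, was the one called higher in LPS 4 d than in LPS 1 d, with 6.55 ± 0.30, against 5.43 ± 0.10 in LPS 1 d and 4.73 ± 0.27 in PBS (SD, n = 3 arrays each).

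Of 6 suppressors of interferon signalling, 3 were higher in LPS 4 d than in PBS, 4 were higher in LPS 1 d than in PBS, and 2 were lower in LPS 4 d than in LPS 1 d, with a median log2 change from PBS of 0.79 at 4 d and 1.69 at 1 d. *Usp18*, which blocks the type I receptor, had log2 changes of 1.37 at 4 d and 3.86 at 1 d from a PBS level at background, and *Socs3* had 2.04 and 3.91. *Ptpn6*, a phosphatase of leukocytes, had changes of 3.19 at 4 d and 2.66 at 1 d. Of 11 other genes induced by interferon gamma, 6 were higher and 1 lower in LPS 4 d than in PBS (median log2 change of the list 1.32), and 8 were higher in LPS 1 d (median 1.97). *Cxcl10*, a chemokine for T cells, had the largest change, 2.75 at 4 d and 6.83 at 1 d from a PBS level at background. *Psmb8*, a subunit of the immunoproteasome, had 2.31 and 3.20, and the tryptophan-degrading enzyme *Ido1* was the gene lower at 4 d (−0.81). The *Ido1* call (adjusted p = 0.0460 from limma) was lost by ordinary tests.

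**Figure D4:**
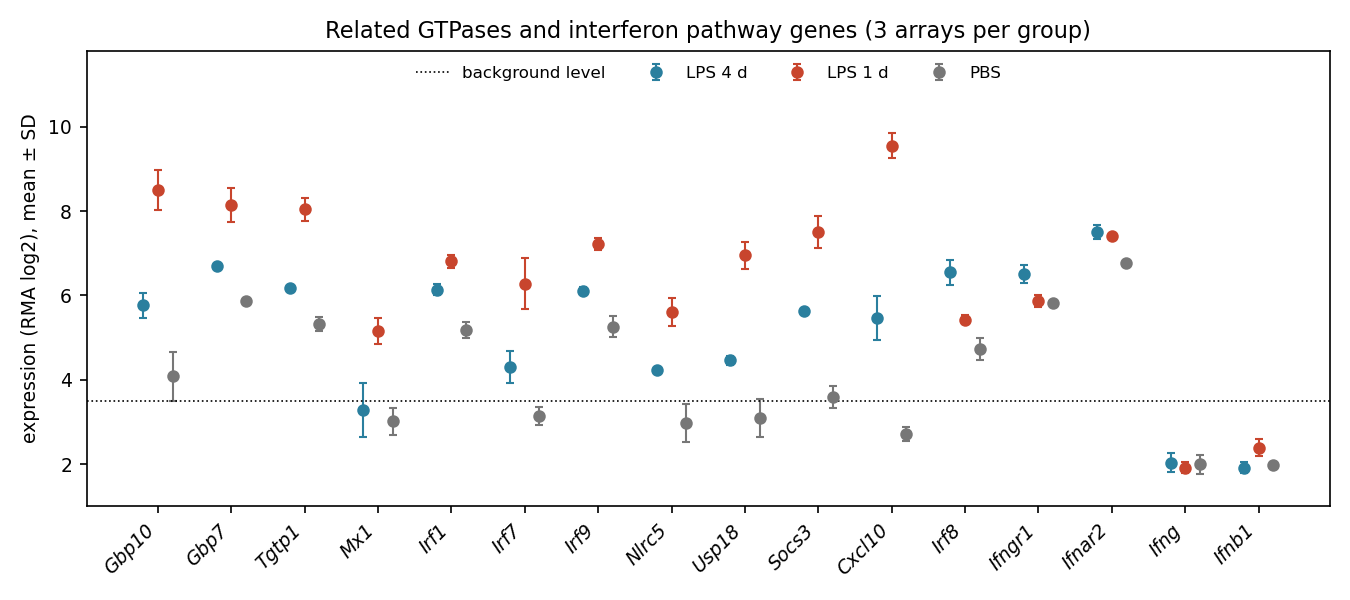
Mean log2 expression ± SD (y axis, 3 arrays per group) of related GTPases, interferon transcription factors, suppressors, receptors and interferons (x axis) in LPS 4 d (blue), LPS 1 d (red) and PBS (grey), with the background level of 3.49 dotted. *Ifng* and *Ifnb1* lie below the dotted line in all groups, and *Irf8* and *Ifngr1* are highest in LPS 4 d.

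Genes whose products work with the GTPases, or in the same responses, were mixed. Of 7 genes of galectins and of ubiquitin or ubiquitin-like conjugation, 4 were higher in LPS 4 d and 6 in LPS 1 d than in PBS (median log2 changes of 0.96 and 1.92). The list was drawn up for damaged or coated vacuoles, a role not established for every gene in it (*Ube2l6*, *Herc6*). *Ube2l6*, among those called at 1 d, had every group mean at background (2.24 in LPS 4 d, 3.06 in LPS 1 d and 1.96 in PBS). *Herc6*, also called at 1 d, had a PBS mean at background (3.00), which limits its change. *Lgals3*, a galectin that marks broken vacuoles, had log2 changes from PBS of 3.64 at 4 d and 2.78 at 1 d, and the ubiquitin ligase *Rnf213* had 1.25 and 2.31. Of 7 genes of the non-canonical inflammasome and its products, 4 were higher in LPS 4 d and 4 in LPS 1 d than in PBS (medians of 1.44 and 1.17). *Casp4*, which encodes caspase-11 in mice, had 4.78 ± 0.26 in LPS 4 d, 6.11 ± 0.31 in LPS 1 d and 2.77 ± 0.63 in PBS (SD, n = 3 arrays each), the last at background. Limma called 0 of 13 autophagy genes, some of whose products are needed to place these GTPases, in any comparison, and an unadjusted p under 0.05 was seen for 1 gene in each of the 3 comparisons. In LPS 4 d against PBS this gene was *Gabarap*, whose adjusted p of 0.0324 from limma passed the threshold while its log2 change of 0.39 was below the fold required. The most abundant were *Gabarapl1* (11.06 ± 0.02 in LPS 4 d, 11.05 ± 0.07 in LPS 1 d, 11.16 ± 0.02 in PBS) and *Map1lc3a* (10.55 ± 0.02, 10.42 ± 0.02 and 10.60 ± 0.07, SD, n = 3 arrays each). Likewise limma called 0 of 6 genes of the enzymes that add and trim lipid anchors such as those of some guanylate-binding proteins, with 0 at an unadjusted p under 0.05. The most abundant of these were *Fnta* (8.76 ± 0.04 in LPS 4 d, 8.69 ± 0.04 in LPS 1 d, 8.80 ± 0.06 in PBS) and *Zmpste24* (8.16 ± 0.01, 8.18 ± 0.08 and 8.10 ± 0.0031, SD, n = 3 arrays each). The median log2 changes from PBS lay between −0.05 and 0.00 in both lists. Limma with an intensity trend and ordinary tests also called 0 in these last 2 lists.

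By the Pearson correlation over the 9 arrays with the mean profile of the 7 genes, among 12057 genes above background in at least 1 group, the 5 closest were *Cxcl10* (0.997), *Ifit3*, an interferon-induced antiviral gene (0.997), *Rtp4* (0.996), *Cebpb*, a transcription factor of acute inflammation (0.994), and *Srgn*, a granule proteoglycan of leukocytes (0.994). *Ifit3* had 6.97 ± 0.08 in LPS 4 d, 9.14 ± 0.24 in LPS 1 d and 5.62 ± 0.0034 in PBS (SD, n = 3 arrays each).

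Markers of several cell types moved with these differences, and their part in the GTPase values was not tested. Monocyte and macrophage markers of recruited cells (10 measured) were called higher than PBS for 9 genes in LPS 4 d and for 9 in LPS 1 d, and their level summed on the linear scale was 2002 to 2894 in LPS 4 d, 1609 to 1733 in LPS 1 d and 256 to 300.2 in PBS. Between the times 5 of these 10 were lower and 2 higher in LPS 4 d than in LPS 1 d, with a median log2 change of −0.41. *Chil3* (−3.09), *Clec4e* (−2.58) and *Plac8* (−2.37) were lower in LPS 4 d together with the GTPases, while *Ms4a7* (4.36) and *Lyz2*, the most abundant of the list (10.57 in LPS 4 d, 9.09 in LPS 1 d and 5.86 in PBS), were the 2 higher. The higher sum in LPS 4 d than in LPS 1 d rests on *Lyz2* and does not describe the list as a whole. For neutrophils, 1 of 11 markers was higher in LPS 4 d and 7 in LPS 1 d, with sums of 302 to 520.4 in LPS 4 d, 1660 to 4510 in LPS 1 d and 104 to 191 in PBS, and 4 were lower in LPS 4 d than in LPS 1 d. For microglia, 5 of 10 markers were higher in LPS 4 d and 3 lower in LPS 1 d, with sums of 2808 to 3275, 1652 to 2000.0 and 1749 to 1885 in the same groups, and 8 were higher in LPS 4 d than in LPS 1 d. By ordinary tests these counts between the times were 2 lower and 2 higher for the monocyte and macrophage list, 1 lower for neutrophils and 4 higher for microglia. Of 18 T and NK cell markers, 4 had a group mean above background in each group, and *Cd3d*, *Cd3e*, *Cd3g* and *Ncr1* were at background in all 3 groups. The 4 were *Cd4* (4.43 in LPS 4 d, 4.39 in LPS 1 d and 4.83 in PBS), *Prf1* (4.43, 4.49 and 4.44), *Eomes* (3.91, 3.90 and 4.14) and *Klrk1* (3.91, 3.56 and 3.52). None of these 4 was called in any comparison. The 3 of the 18 higher at 4 d (*Gzma*, *Nkg7* and *Klrd1*) had LPS 4 d means from 2.62 to 3.23, below the background level. For endothelium, 4 of 12 markers were higher in LPS 4 d and 3 in LPS 1 d, and for astrocytes 2 of 9 at each time, with *Gfap* changed most (2.50 in LPS 4 d and 2.83 in LPS 1 d). All 12 striatal and neuronal markers measured, among them *Ppp1r1b* and *Drd1*, were above background in every group, and 1 of them (*Gad2*, −0.59) was lower at 4 d.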

How the data were processed

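RNA from 9 pools of brain tissue was labelled and hybridised by the authors to Affymetrix HT MG-430 PM arrays. The deposited values are log2 expression per probe set, made by the authors with RMA in Affymetrix Expression Console (version not given in the sources used here), and were tested as deposited. Array medians were 4.32 to 4.37. Control entries (104) were removed and the other 45037 probe sets fitted with limma 3.58.1 in R 4.3.3 (1 mean per group, empirical Bayes moderation), a procedure tested on simulated data before use. Gene names came from the platform annotation, and the probe sets with several symbols (551) or none (15588) were tested but not named. Summaries used Python 3.11.15, numpy 2.4.6, pandas 2.3.3 and matplotlib 3.10.9.

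The GTPases and the gene lists were chosen with earlier results of these data known. Genes named are the 7 GTPases, the 5 nearest profiles, up to 4 genes with the largest change past the test per list and comparison, and, for lists with none, the 2 most abundant. *Ifng*, *Ifnb1* and *Irf1* were given whatever their result. The other genes without a change that are named (*Mx2*, *Irgq*, *Gbp2b*, *Gbp4*, *Gbp8*, *Gabarap* and single markers) were chosen after their values were seen, as were *Ube2l6* and *Batf2*. Alternatives were other limma settings and normalisations, other probe sets, a fold change of at least 2, and each array left out. No batch is given in the sources used here, and protein sequences were not used here.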

Additional observations from a re-analysis of the deposited data

Results flagged for a closer look

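The difference between the times after LPS passed the test for 30 of the genes named by rule outside the cell type marker lists. Each is given as LPS 4 d minus LPS 1 d on the log2 scale. Many were named because they passed a test, this one included, so the 30 measures no enrichment. Of all genes, 1.37% were called lower and 1.84% higher. *Batf2*, named only for its level at background, is not among the 30. Each group has only 3 arrays, so single arrays were not tested as outliers. Among the GTPases, the values were −2.73 for *Gbp2*, −2.33 for *Iigp1*, −1.85 for *Igtp*, −1.82 for *Ifi47*, −1.70 for *Gbp3*, −1.44 for *Irgm1* and −0.91 for *Irgm2*. Among their relatives, they were −2.73 for *Gbp10*, −1.88 for *Mx1*, −1.87 for *Tgtp1* and −1.44 for *Gbp7*. The receptor chain *Ifngr1* had 0.63. Among transcription factors, they were −1.98 for *Irf7*, −1.37 for *Nlrc5*, −1.10 for *Irf9*, −0.67 for *Irf1* and, in the other direction, 1.12 for *Irf8*. The suppressors *Usp18* and *Socs3* had −2.49 and −1.87, and the chemokines *Cxcl10* and *Cxcl11* had −4.09 and −1.31. In the vacuole list, the ligases *Rnf213*, *Trim21* and *Herc6* had −1.06, −0.96 and −1.24. In the list of the inflammasome and its products, the cytokine *Il1b* had −3.22 and the adaptor *Pycard* had 0.60. The nearest profiles *Ifit3*, *Rtp4*, *Srgn* and *Cebpb* had −2.17, −1.85, −1.35 and −1.10.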

How the results depend on the processing

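The direction of all 21 changes of the 7 GTPases was kept under each of 20 other settings, and 405 of 420 values stayed on the same side of the threshold. The 15 that did not were changes of *Irgm1*, *Irgm2* and *Igtp*. *Irgm1* was not called between LPS 4 d and PBS by ordinary tests (adjusted p = 0.105 without limma's moderation) or with only those groups in limma's fit (adjusted p = 0.0521), out of a range of 0.00205 to 0.107 over all settings. *Irgm2* was not called between LPS 4 d and LPS 1 d by ordinary tests (adjusted p = 0.0840), out of a range of 0.00135 to 0.0840. With a fold change of at least 2, 4 of the 7 were higher in LPS 4 d than in PBS, against 459 of all 17097 genes. Leaving out each array in turn gave 6 to 7 GTPases higher at 4 d and 6 to 7 lower in LPS 4 d than in LPS 1 d, and 7 to 7 higher at 1 d and different across the groups. Among all 17097 genes, these settings called 567 to 769 higher at 4 d and 546 to 658 higher at 1 d. They called 154 to 239 genes lower in LPS 4 d than in LPS 1 d. No sign that the replicate numbers pair the arrays was seen (correlations of deviations between −0.0346 and 0.0216 for arrays of the same number). This check uses all probe sets, many of them at background, and cannot exclude a pairing. With the number as a replicate block all 7 were called in each comparison and 633 genes, against 660 without it, were higher at 1 d. For the list of genes induced by interferon gamma, 6 were lower in LPS 4 d than in LPS 1 d with an intensity trend in limma, and 4 without LPS 1 d replicate 1 (chosen after seeing the data), against 2. Ordinary tests, applied to the lists after seeing the data, lowered several list counts by over 1.5 times. Higher in LPS 4 d than in PBS were 1 other GTPase, against 3, 3 transcription factors, against 6, and 2 inflammasome genes, against 4. Lower in LPS 4 d than in LPS 1 d were 2 transcription factors, against 7, and 1 gene of the vacuole list, against 3. With a fold change of at least 2, 1 other GTPase, against 3, and 2 transcription factors, against 6, were higher in LPS 4 d than in PBS, and 3 transcription factors, against 7, were lower in LPS 4 d than in LPS 1 d. Counting matches with 3 spacer bases as well left the promoter count at 5 of 6 genes, against 5.99% of all windows. The number of arrays limits precision, and changes from a group at background are bounded by it.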
